A study of Mus musculus with 12 samples.

Results

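Open chromatin was measured in cultured T helper cells labelled as lacking the glucocorticoid receptor (cKO, a conditional knockout) and in wild-type cells (WT), neither given the drug dexamethasone. The comparison used 6 of the 12 libraries of the series, 3 from cKO control cells and 3 from WT control cells, and all 222105 peaks of the joint peak set, of which 202587 had enough counts to be tested. Results are given with and without a 160 kb stretch of chromosome 5 that spans Rhoh and Chrna9 in build mm10, here called the interval, which holds 62 peaks, 57 of them tested. This interval had been singled out earlier on the same libraries, so its values are given as a description.

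The cKO cells came from GR cKO mice and the WT cells from GR WT mice, both labelled C57/B6. In both genotypes the starting cells were naive CD4+ T cells of the spleen and draining lymph nodes, and culture turned them into homeostatic Th17 cells, called Th17Hom in the labels. Control cells then went on without Dex, the synthetic glucocorticoid dexamethasone. The cKO Dex and WT Dex groups, with 3 libraries each, received it for 2 days and serve here as a second view of the same genotype difference. Each library was made from 6000 sorted cells and 16 cycles of PCR. The labels give neither the Cre driver nor the deleted part of the receptor gene, and they leave unsaid whether the 3 libraries of a group are different animals or cultures.

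The glucocorticoid receptor, encoded by Nr3c1, is a nuclear receptor held in the cytoplasm by Hsp90 and its co-chaperones until a steroid such as corticosterone binds it. It then enters the nucleus, binds DNA at palindromic elements, recruits coactivators or corepressors, and also interferes with the factors AP-1 and NF-kB. Homeostatic Th17 cells make IL-17 and IL-10 and are associated with barrier tissue, while pathogenic Th17 cells respond to IL-23 and drive tissue inflammation. ATAC-seq inserts adapters into open DNA with a transposase, so the read count in a peak measures how open that site is across the cells. The comparison asks whether loss of the receptor alters open chromatin where no Dex was added.

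Over all peaks the cKO control libraries summed to 15620547, 19133536 and 14796049 counts, against 12988437, 21138353 and 24595233 counts for WT control. Levels are given in CPM, counts scaled to the depth and composition of each library, and differences as log2 fold changes, cKO over WT, with standard errors from a fit of all 12 libraries. A peak was called when its Benjamini-Hochberg adjusted p in edgeR was under 0.05. At the strongest peak of each gene, the 10 T cell and Th17 markers had a median of 21.9 CPM per kb in cKO control and 24.0 CPM per kb in WT control. The medians for B cell, CD8 and NK cell, myeloid, and erythroid and stromal markers lay between 6.15 and 9.89 in cKO control and between 6.264 and 10.995 in WT control. None of the markers with a tested peak was at 0 in either group mean.

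The promoters of 4 genes are shown because a peak over each was among the lower peaks with the smallest p, as RefSeq windows of 300 bases (250 before and 50 after the transcript start, GRCm38.p6, all on the plus strand). Capitals mark matches, on either strand, to the motifs searched. For the glucocorticoid receptor these were the short motif AGAACA and a full palindromic element that contains it. The others were the ETS motif CCGGAAG, the NF-Y motif CCAAT, the GC box GGGCGG, the AP-1 motif TGANTCA, the ROR motif AGGTCA and the CRE motif TGACGTCA. Any short receptor motif inside the full element counts for both.
Rhoh, chr5:65863334-65863633: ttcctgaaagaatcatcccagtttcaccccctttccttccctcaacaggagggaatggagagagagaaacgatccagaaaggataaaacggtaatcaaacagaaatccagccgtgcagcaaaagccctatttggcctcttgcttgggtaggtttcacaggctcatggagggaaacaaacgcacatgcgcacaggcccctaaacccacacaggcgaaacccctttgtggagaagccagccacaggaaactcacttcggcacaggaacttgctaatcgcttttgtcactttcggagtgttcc
Ctnnbip1, chr4:149517991-149518290: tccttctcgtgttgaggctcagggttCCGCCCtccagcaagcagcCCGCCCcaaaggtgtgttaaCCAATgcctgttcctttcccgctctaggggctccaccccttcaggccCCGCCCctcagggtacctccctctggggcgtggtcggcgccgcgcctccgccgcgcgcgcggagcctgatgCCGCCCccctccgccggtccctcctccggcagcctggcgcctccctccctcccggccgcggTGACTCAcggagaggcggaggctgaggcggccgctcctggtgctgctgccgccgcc
Capza2, chr6:17636760-17637059: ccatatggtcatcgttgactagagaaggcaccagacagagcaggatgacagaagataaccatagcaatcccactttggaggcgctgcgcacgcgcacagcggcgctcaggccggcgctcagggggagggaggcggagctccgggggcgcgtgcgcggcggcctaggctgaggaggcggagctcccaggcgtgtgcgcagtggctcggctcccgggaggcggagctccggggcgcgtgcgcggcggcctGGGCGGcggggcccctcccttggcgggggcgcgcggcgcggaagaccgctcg
Dot1l, chr10:80754953-80755252: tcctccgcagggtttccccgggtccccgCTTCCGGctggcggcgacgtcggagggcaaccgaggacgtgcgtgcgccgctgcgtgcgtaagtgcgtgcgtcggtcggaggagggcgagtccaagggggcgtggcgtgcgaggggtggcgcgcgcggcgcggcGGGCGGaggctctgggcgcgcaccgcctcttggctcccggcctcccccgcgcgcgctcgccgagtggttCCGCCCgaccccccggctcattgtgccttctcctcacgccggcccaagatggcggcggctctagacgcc

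The Rhoh window held none of the motifs, and its GC content was 50.3%, against a mean of 61.4% over windows on tested peaks. The Ctnnbip1 window held 4 GC boxes, 1 NF-Y and 1 AP-1 match, the Capza2 window 1 GC box, and the Dot1l window 2 GC boxes and 1 ETS match. None of these windows held either receptor motif. Among 21263 promoter windows of protein-coding genes, 0.0564% held the full element and 16.2% the short one. GC boxes were in 46.2%, NF-Y in 38.2%, ROR in 14.7%, ETS in 11.6%, AP-1 in 6.99% and CRE in 2.23%. On the 13291 windows that lay on a tested peak, the median genotype log2 was -0.15 with the short receptor motif and -0.17 without it.

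The targeted gene was open in both genotypes. The strongest Nr3c1 peak, within the gene on chromosome 18, had 52.3, 60.6 and 57.4 CPM in the cKO control libraries, against 60.2, 74.4 and 70.1 CPM in the WT control libraries. The lowest WT library lay just under the highest cKO library, so the groups overlapped. The log2 fold change was -0.27 ± 0.10 (SE, n = 3 per group), with an edgeR adjusted p of 0.532. Among all 24 tested Nr3c1 peaks the median log2 was 0.06, and none was called. These peaks do not check the genotype labels, because accessibility is not transcript or protein and the deleted part is not given.

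Most called peaks lay in the interval that contains Rhoh and Chrna9. With all peaks in the fit, edgeR called 21 of 202587 (0.0104%), 2 higher (0.000987%) and 19 lower (0.00938%) in cKO, and 17 of these lay in the interval. At an unadjusted p under 0.05 the count was 15579 (7.69%). The other 4 calls (0.00198% of peaks outside the interval), 2 higher and 2 lower (0.000988% each), were peaks at Mad1l1, Atp2a2, Snd1 and Ctnnbip1. With the interval taken out before filtering and scaling, edgeR called 0 of 202530 peaks (0%), while 15502 (7.65%) had an unadjusted p under 0.05. That count depended on the method. On the same peaks DESeq2, which gave an adjusted p to 10127 of them, called 491, all lower in cKO, limma-voom called 0, and limma with sample quality weights called 171. Leaving weak peaks out (a mean under 30 counts) gave 114 calls. The balance of directions with all peaks also moved with scaling, at 9 higher and 29 lower with total counts, 21 and 27 with loess offsets, and 36 and 37 with quantile normalisation.

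Rhoh encodes a haematopoietic GTPase needed for signalling from the T cell receptor through ZAP-70. The peak over its promoter, on chromosome 5 from 65862850 to 65863924, had 7.32, 8.09 and 9.36 CPM in the cKO control libraries, against 18.6, 22.1 and 18.8 CPM in the WT control libraries. All cKO libraries were below all WT libraries, and the log2 fold change was -1.27 ± 0.14 (SE, n = 3 per group). With Dex the same peak had 9.68, 9.99 and 9.72 CPM in cKO, against 22.9, 21.7 and 17.3 CPM in WT. The strongest Rhoh peak, within the gene from 65866277 to 65868293, had 17.9, 21.1 and 16.5 CPM in cKO control and 40.9, 36.6 and 37.5 CPM in WT control, a log2 of -1.04 ± 0.11. A further peak within the gene, from 65882539 to 65883223, averaged 10.9 ± 0.216 CPM in cKO control and 22.9 ± 1.27 CPM in WT control (SD, n = 3). Of 29 tested peaks assigned to Rhoh, 28 had a negative log2 and 10 were called. In bulk samples, fewer cells with an open site and less opening per cell cannot be told apart. Counts also scale with the number of DNA copies, which was not measured, so copies and openness cannot be told apart either.

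The lower level extended beyond Rhoh to Chrna9, the gene of a nicotinic acetylcholine receptor subunit best known from cochlear hair cells. The strongest of its peaks, also the strongest of the interval, lay within the gene from 65955246 to 65956339 and had 16.3, 21.8 and 17.7 CPM in the cKO control libraries, against 36.2, 39.3 and 36.2 CPM in the WT control libraries. A peak 13853 bases outside the gene, from 65991020 to 65991658, had 10.3, 8.56 and 10.1 CPM in cKO control, against 19.3, 21.8 and 20.7 CPM in WT control. The groups stood apart at both peaks, with log2 values of -0.996 ± 0.120 and -1.10 ± 0.13 (SE, n = 3 per group). Of 25 tested peaks assigned to Chrna9, 24 were negative and 7 were called. A peak 4409 bases outside Rhoh on the Chrna9 side, from 65900750 to 65901468, averaged 8.45 ± 1.47 CPM in cKO control and 18.9 ± 2.24 CPM in WT control (SD, n = 3).

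Across the interval, 55 of 57 tested peaks had a negative log2 in control cells, with a median of -0.97. In 38 of them every cKO library was below every WT library, against 7.6% of all tested peaks. The 24 peaks with a mean level of at least 2 CPM were all negative, between -1.31 and -0.45, and all 17 calls were among them. The 33 weaker peaks ranged from -2.08 to 0.40 with a median of -0.84. Their counts are low, and the positive ones were a peak within Rhoh at 0.40 ± 0.63 and a peak near Chrna9 at 0.07 ± 0.31 (SE, n = 3 per group).

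Summed over the tested peaks of the interval, the cKO control libraries held 165.9, 185.4 and 175.0 CPM and the WT control libraries 342.8, 354.3 and 361.9 CPM. The ratio of the means was 0.497. In Dex-treated cells, which share no library with this comparison, the cKO libraries held 194.8, 200.2 and 165.5 CPM and the WT libraries 356.3, 366.9 and 341.0 CPM, a ratio of 0.527. All 57 peaks were negative there, and 14 were called. All 17 peaks called in control cells were negative with Dex, and 13 of them were called. The interval was chosen on both treatments, so this repeats the description.

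**Figure D1:**
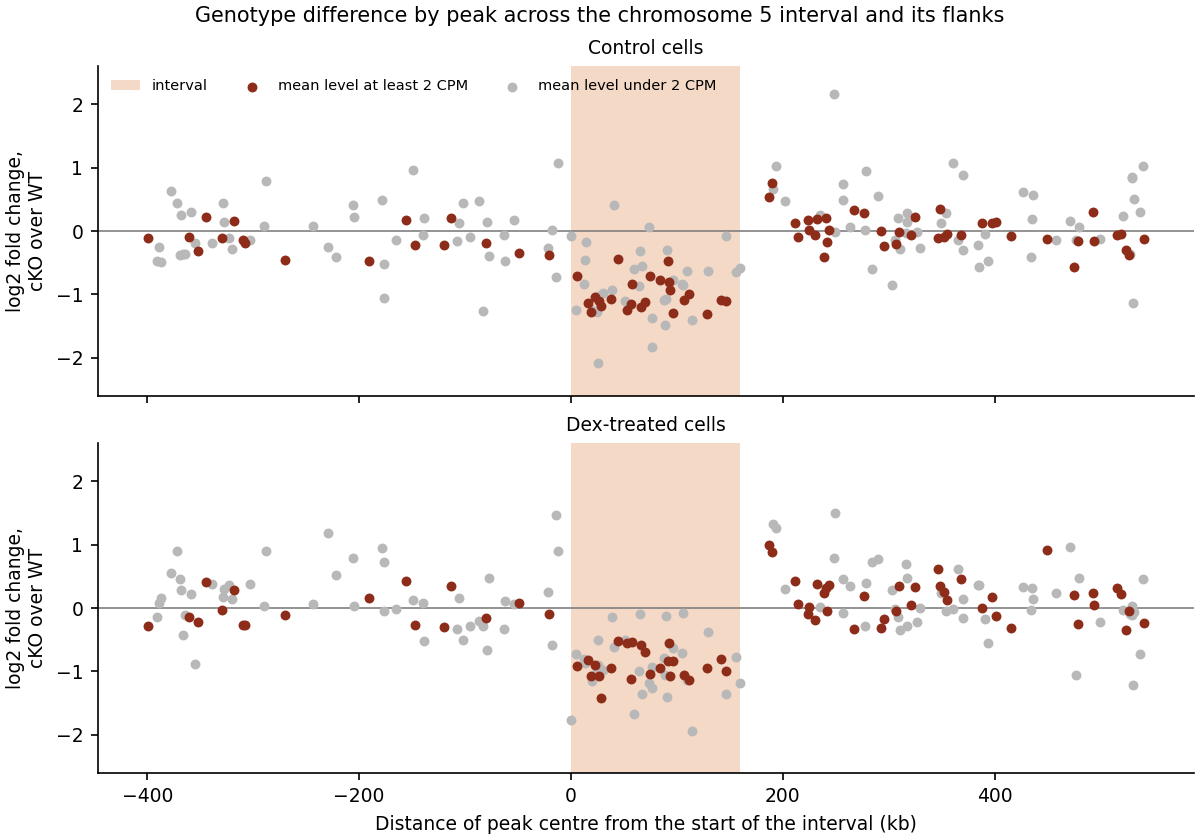
Log2 fold change (cKO over WT) of each tested peak against its distance in kb from the start of the interval, in control cells above and Dex-treated cells below, with the interval shaded and peaks of at least 2 CPM in dark red. All 24 such peaks of the interval lie below 0 in both panels, and the first peaks after it lie above 0.

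Before the interval, the last tested peaks lay within or next to N4bp2, which encodes a BCL3-binding protein with nuclease and kinase domains, and 3 of the last 5 were negative with a median of -0.27. The nearest of them ended 12295 bases before the interval. Inside it, the last 2 peaks, assigned to Rbm47, had log2 values of -0.64 ± 0.36 and -0.59 ± 0.55 (SE, n = 3 per group), and the next tested peak began 27137 bases further on. The 62 tested peaks in the 400 kb before it had a median log2 of -0.12, and the 88 in the 400 kb after it a median of 0.01.

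Directly after the interval the sign was the opposite. The first 5 peaks, all within Rbm47, an RNA-binding protein gene whose product assists APOBEC1 editing, had positive log2 values between 0.47 and 1.03 in control cells, with a median of 0.67 there and 0.99 with Dex. These 5 were picked out after their values were seen. The strongest of them, from 66034044 to 66034984, had 8.64, 10.3 and 8.71 CPM in the cKO control libraries, against 5.03, 5.72 and 5.53 CPM in the WT control libraries. Every cKO library was above every WT library, at a log2 of 0.76 ± 0.17 (SE, n = 3 per group), but the edgeR adjusted p was 0.147 and the peak was not called. With Dex it had 10.1, 11.8 and 7.08 CPM in cKO and 5.55, 5.52 and 4.65 CPM in WT, and it was called there with an adjusted p of 0.00252. The neighbouring Rbm47 peak from 66031939 to 66032269 averaged 3.11 ± 0.307 CPM in cKO control and 2.103 ± 0.436 CPM in WT control (SD, n = 3). The next strong peaks of Rbm47, from 66058843 and from 66067376, had log2 values of -0.10 ± 0.11 and 0.18 ± 0.12.

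Outside the interval, the 4 calls of the fit with all peaks were split in direction and the higher ones were weak. Their adjusted p-values come from that fit, whose adjustment includes the small p-values of the 17 interval calls. With the interval removed none of the 4 was called. Within Mad1l1, which encodes a spindle checkpoint protein, a peak on chromosome 5 from 140008509 to 140009469 had 2.58, 2.45 and 3.42 CPM in the cKO control libraries, against 1.297, 0.739 and 0.536 CPM in the WT control libraries. Its log2 was 1.79 ± 0.35 with an edgeR adjusted p of 0.0427. Within Atp2a2, the gene of the calcium pump of the endoplasmic reticulum, a peak on chromosome 5 from 122454838 to 122455563 had 1.74, 1.62 and 2.52 CPM in cKO control, against 0.534, 0.493 and 0.247 CPM in WT control. Its log2 was 2.24 ± 0.45 with an edgeR adjusted p of 0.0484. Neither difference had the same sign in Dex-treated cells, where the values were -0.34 ± 0.33 and -0.53 ± 0.42 (SE, n = 3 per group).

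The lower calls were stronger peaks. Within Snd1, which encodes a staphylococcal-nuclease-like coactivator and RNA-binding protein, a peak on chromosome 6 from 28931742 to 28932519 had 10.1, 8.82 and 9.10 CPM in the cKO control libraries, against 18.9, 12.2 and 17.6 CPM in the WT control libraries. Its log2 was -0.79 ± 0.15 with an edgeR adjusted p of 0.0317. The peak over the printed Ctnnbip1 promoter, on chromosome 4 from 149517672 to 149518764, had 23.7, 21.9 and 17.7 CPM in cKO control and 28.3, 33.5 and 34.1 CPM in WT control. Ctnnbip1 encodes an inhibitor of the binding of beta-catenin to TCF factors. Its log2 was -0.60 ± 0.12 with an edgeR adjusted p of 0.0484. With Dex both were again negative, at -0.46 ± 0.15 and -0.21 ± 0.12, and neither was called. The 4 calls outside the interval were often lost when a library was left out. The Atp2a2 call was lost in all 6 fits that left out 1 control library, the Snd1 call in 5 (kept without WT control replicate 2), the Mad1l1 call in 5 (kept without WT control replicate 1) and the Ctnnbip1 call in 4 (kept without cKO control replicate 1 or WT control replicate 1).

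Among the 10 lower peaks outside the interval with the smallest p, 5 lay on a promoter. So did 10917 of all 202530 tested peaks there and 6777 of the strongest 10%, which held 20253 peaks. The peak over the printed Capza2 promoter, a gene for an actin capping subunit, had 16.4, 18.0 and 16.1 CPM in the cKO control libraries, against 24.9, 27.3 and 23.4 CPM in the WT control libraries. Its log2 was -0.58 ± 0.12 with an edgeR adjusted p of 0.0657. The peak over the printed promoter of Dot1l, a histone methyltransferase gene, averaged 21.1 ± 0.719 CPM in cKO control and 30.3 ± 1.62 CPM in WT control (SD, n = 3), at an adjusted p of 0.115. Promoter peaks of Necap1, which acts in endocytosis, and Dnajc24, which acts in diphthamide synthesis, had log2 values of -0.68 ± 0.14 and -0.60 ± 0.13. The others lay within Rbm4b, an RNA-binding protein gene (-1.08 ± 0.22), within Scamp2, a gene of a secretory membrane protein (-0.59 ± 0.13), near Akr7a5, an aldehyde reductase gene (-0.69 ± 0.15), and on chromosome 3 from 54567128 to 54567846 with no gene within 50 kb (-0.74 ± 0.15). In each of the 10 peaks every cKO control library was below every WT control library, which the choice by p favours. The Dex-treated libraries entered that choice only through the filter, the scaling and the shared spread of the fit. In them all 10 peaks were negative, with a median of -0.22, and none was called. Among the strongest 10% of all tested peaks outside the interval, 79.6% were negative with Dex, with a median of -0.12.

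Of the 10 higher peaks with the smallest p, 7 reached the minimum of 2 CPM in cKO but not WT control cells, which favours a difference in this direction. In the Dex-treated libraries 7 of the 10 were positive and 3 negative, against 49.9% positive among all tested peaks outside the interval. A peak 20100 bases from Pmaip1, the gene of the pro-apoptotic protein NOXA, had 5.34, 5.43 and 7.68 CPM in the cKO control libraries, against 2.67, 3.60 and 3.38 CPM in the WT control libraries. Its log2 was 0.91 ± 0.21 with an edgeR adjusted p of 0.179. With Dex it had 4.80, 7.19 and 5.55 CPM in cKO and 1.95, 2.85 and 2.72 CPM in WT, and it was called there with a log2 of 1.21 ± 0.21. Besides this peak and that of Rbm47, no other of the 10 was called with Dex.

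A peak within Pde4d, which encodes a cAMP-degrading phosphodiesterase, had 5.94, 7.15 and 5.74 CPM in cKO control and 3.13, 3.25 and 3.63 CPM in WT control, at an edgeR adjusted p of 0.0992. Its log2 was 0.91 ± 0.19 in control cells and 0.53 ± 0.19 with Dex. A peak near Nos2, the inducible nitric oxide synthase gene, averaged 2.56 ± 0.697 CPM in cKO control and 0.912 ± 0.277 CPM in WT control (SD, n = 3), at an adjusted p of 0.171. Peaks within Elk3, an ETS-family factor gene, and Mkln1, a ubiquitin ligase subunit gene, had log2 values of 1.08 ± 0.25 and 1.11 ± 0.23. Peaks within Rab11fip5, which acts in endosome recycling, and Tpst2, a tyrosine sulfotransferase gene, had 2.29 ± 0.47 and 1.34 ± 0.31. None of these passed the adjusted threshold.

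**Figure D2:**
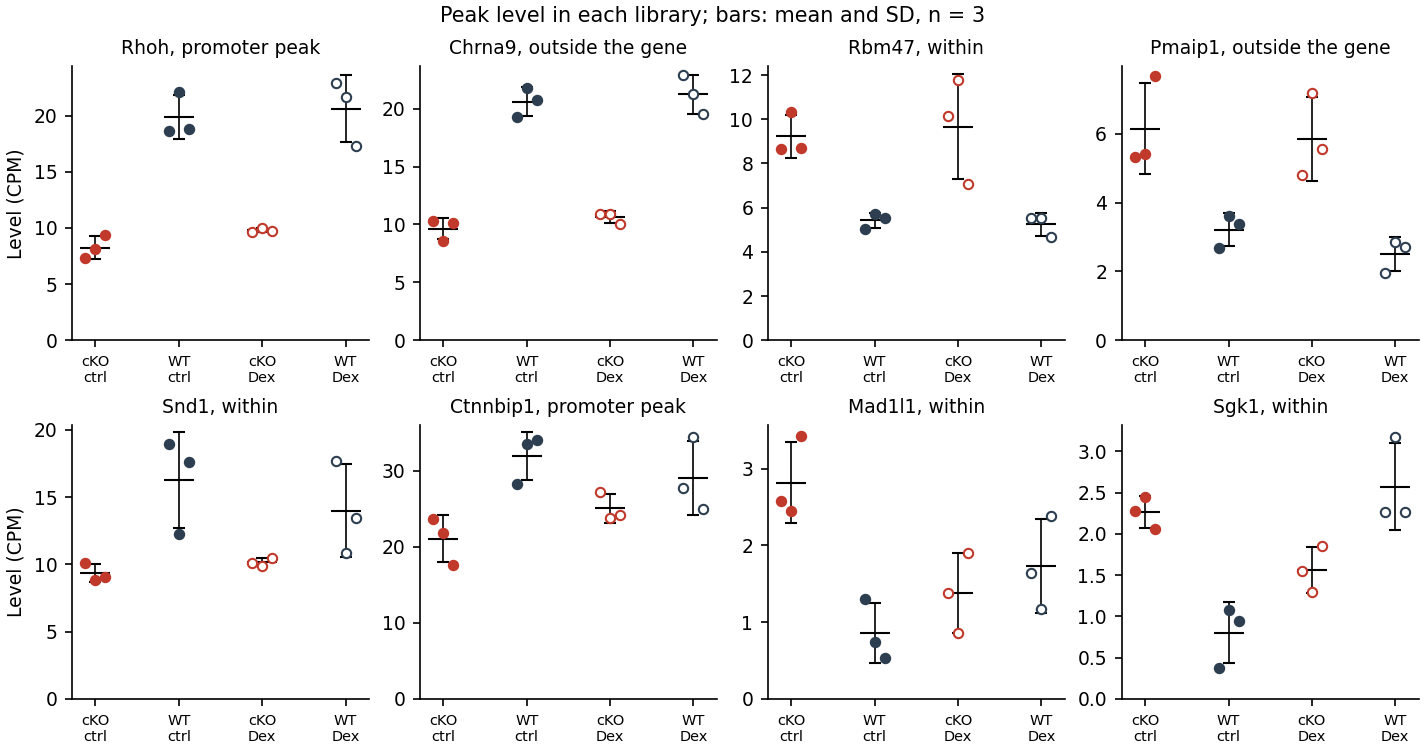
Level in CPM of 8 peaks in every library, with cKO (red) left of WT (dark blue) in control cells (filled) and Dex-treated cells (open), and the mean and SD of each group of 3. At Rhoh, Chrna9, Rbm47 and Pmaip1 the cKO and WT libraries stand apart under both treatments, whereas with Dex they overlap at Mad1l1 and stand apart in the opposite direction at Sgk1.

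Sgk1, which encodes a serum- and glucocorticoid-regulated kinase that supports IL-23 receptor expression in Th17 cells, had a weak peak on chromosome 10 from 21998412 to 21999305. It was among the 10 higher peaks chosen by their p in control cells and among the 7 that reached 2 CPM in cKO but not WT control cells, so its control values are high in cKO by choice. It had 2.28, 2.45 and 2.06 CPM in the cKO control libraries, against 0.381, 1.08 and 0.948 CPM in the WT control libraries. With Dex it had 1.55, 1.29 and 1.85 CPM in cKO and 2.27, 3.18 and 2.27 CPM in WT. The groups did not overlap under either treatment, and the sign turned round. The genotype log2 was 1.42 ± 0.33 in control cells and -0.73 ± 0.30 with Dex, and the difference between them, 2.15 ± 0.44, had an edgeR p of 0.0386 adjusted over all tested peaks. That difference contains the control values by which the peak was chosen, so it is given as a description. The strongest Sgk1 peak, over its promoter, had a log2 of -0.13 ± 0.11 in control cells.

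Across the 12 alternative settings that kept all 6 control libraries, each fitted with all peaks, 499 different peaks outside the interval were called at least once. Of these, 407 had a negative log2 in the edgeR fit with TMM scaling. DESeq2 alone called 371 peaks, 370 of them lower and 2 of them in the interval. In at least 2 settings 207 peaks outside the interval were called, 171 of them negative, but no peak was called in more than 9 settings. Those called in 8 or 9, singled out after these counts were seen, were the peaks of Ctnnbip1, Mad1l1, Capza2, Dot1l and Rbm47 given above and peaks at Arf2, Cbwd1, Malt1 and Rybp. The peak within Malt1, the paracaspase that links the T cell receptor to NF-kB, had 57.1, 54.0 and 51.9 CPM in the cKO control libraries, against 73.6, 80.7 and 71.2 CPM in the WT control libraries. Its log2 was -0.47 ± 0.10 in control cells and -0.35 ± 0.10 with Dex. The promoter peak of Arf2, an ADP-ribosylation factor gene, had 25.7, 31.6 and 25.4 CPM in cKO control and 37.3, 39.2 and 39.3 CPM in WT control. The peak within Rybp, a Polycomb subunit gene, had a log2 of -0.51 ± 0.12, and that within Cbwd1 one of -0.54 ± 0.12.

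Beyond single peaks, the direction of the genotype difference followed peak level. In the strongest 10% of tested peaks outside the interval the median log2 was -0.13, and 19.5% had an unadjusted p under 0.05 and were lower in cKO, against 0.351% that were higher. Over all peaks outside the interval these shares were 4.24% and 3.44%, together 7.67%. In the weakest 10% the median was 0.20. These directions depended on scaling, because the median of the strongest 10% was -0.05 with total counts, -0.00 with both loess offsets and quantile normalisation, and 0.02 with the share of counts in strong peaks as a covariate.

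The share of counts in strong peaks was on average lower in cKO, with a p that does not pass 0.05. The strongest 10% of peaks held 57.9, 60.4 and 58.5% of counts in the cKO control libraries, against 60.6, 62.0 and 60.8% in the WT control libraries. The difference was -2.24 percentage points, with p = 0.1 in an exact two-sided permutation test, the smallest that 3 against 3 allow. For the strongest 20% of peaks the groups overlapped, with 74.3, 77.1 and 75.2% in cKO control and 76.8, 78.6 and 77.7% in WT control, and the p was 0.2. The part of this library property in the results on strong peaks was not tested apart from the settings above.

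The 10917 tested peaks that touched a promoter window had a median log2 of -0.16 in control cells and -0.15 with Dex. In control cells 24.0% were lower and 0.980% higher at an unadjusted p under 0.05, and with loess offsets these shares were 10.5% and 2.51%. Among the strongest 10% of peaks, the median was -0.18 for the 6777 on promoters and -0.09 for the 13476 others. Promoter peaks held 24.5, 24.6 and 24.3% of counts in the cKO control libraries, against 25.9, 26.8 and 26.0% in the WT control libraries, without overlap. The means were 24.5 ± 0.150 and 26.2 ± 0.520% (SD, n = 3 each), with p = 0.1 in an exact two-sided permutation test. The median of promoter peaks stayed negative under every setting run, at -0.05 with loess offsets and with quantile normalisation and at -0.04 with the covariate.

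**Figure D3:**
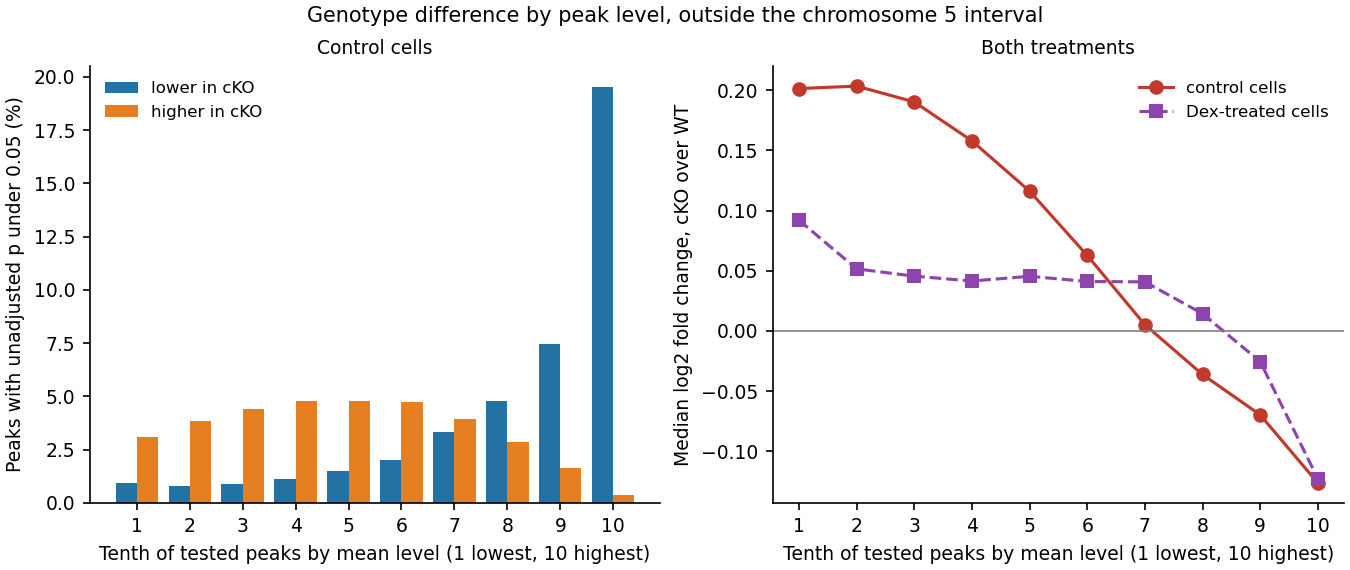
Left, percent of peaks with an unadjusted p under 0.05 that were lower (blue) or higher (orange) in cKO control cells, in 10 equal classes of mean level, and right, the median log2 fold change of each class in control cells (circles) and Dex-treated cells (squares). Lower peaks reach 19.5% in the strongest class, where the medians are -0.13 in control cells and -0.12 with Dex. With loess offsets the control median of that class is -0.00 and with the share covariate 0.02.

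The Dex-treated libraries gave a comparison that shares no library with the control cells. Of 340 peaks outside the interval that were lower in control cells at an unadjusted p under 0.001, 299 (87.9%) were negative with Dex, with a median of -0.21. Of 159 that were higher, 76 (47.8%) were positive with Dex, with a median of -0.03. Among all tested peaks outside the interval 50.1% were negative with Dex, but among the strongest 10% the share was 79.6%, and 216 of the 340 lower peaks were that strong. Of these 216, 212 (98.1%) were negative with Dex, with a median of -0.23, against -0.12 for the strongest 10%. This difference was not tested. Across 202530 peaks the correlation of both genotype differences was 0.0292, and across the strongest 10% it was 0.309. Peaks of a library are not independent, so no p is given, and the share of counts in strong peaks was lower on average in cKO under both treatments. With Dex, edgeR called 345 peaks for genotype (0.17%), 331 of them outside the interval.

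No peak at genes of the receptor complex was called. The list of the receptor, its chaperones and its partners had 19 genes with a peak, and at their strongest peaks 19 of 19 log2 values were negative, as were 79.7% of the strongest peaks of all 17348 genes. The list's median was -0.24, against -0.14 over all genes. At an unadjusted p under 0.05, 11 of 19 (57.9%) were lower, against 19.5% of all genes lower and 0.865% higher. These shares vary with level and place. In the strongest 10% of peaks outside the interval, 34.4% of promoter peaks were lower and 95.3% negative. Of the other peaks in that class, 12.1% were lower and 78.3% negative. Over the list's 425 tested peaks, 20 were higher and 21 lower at an unadjusted p under 0.05 (4.71% and 4.94%). The shares over all tested peaks were 3.44% and 4.25%. The median log2 of the 425 peaks was -0.03, and none passed the adjusted threshold. With loess offsets the list's median at strongest peaks was -0.09 and 3 genes (15.8%) were lower. All genes outside the interval then had a median of -0.03 and 8.89% lower. With quantile normalisation 4 (21.1%) were lower against 9.74%, and with the share covariate 2 (10.5%) against 5.15%. Without WT control replicate 2 the count was 3 (15.8%) against 8.01%, and without cKO control replicate 1 it was 6 (31.6%) against 12.3%. None was higher in any of these settings. The difference between the list and other genes was not tested.

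Hspa4, a chaperone gene of the Hsp110 family, had the lowest value of that list. Its promoter peak had 42.7, 44.5 and 40.0 CPM in the cKO control libraries, against 55.0, 55.9 and 51.0 CPM in the WT control libraries. The groups stood apart at a log2 of -0.35 ± 0.10, with an edgeR adjusted p of 0.396. Of 3 further genes, chosen after their values were seen, Ncoa2, a steroid receptor coactivator gene, had 63.4, 68.3 and 70.0 CPM in cKO control, against 75.6, 94.6 and 80.5 CPM in WT control, and Crebbp, a histone acetyltransferase gene, had a log2 of -0.32 ± 0.12. Hsp90ab1, which encodes an Hsp90 that holds the receptor, had -0.11 ± 0.10, and Smarca4, the ATPase gene of the SWI/SNF remodeller, had the highest value at -0.04 ± 0.10.

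The 28 classical target genes of the receptor that had a tested peak showed no call in control cells. Their 575 tested peaks had a median log2 of 0.01, and 24 were higher and 21 lower at an unadjusted p under 0.05 (4.17% and 3.65%), near the shares of 3.44% and 4.25% over all tested peaks. At the strongest peaks 7 of 28 (25.0%) were lower against 19.5% of all genes. Tsc22d3, which encodes the anti-inflammatory protein GILZ, had 32.0, 34.2 and 32.8 CPM in the cKO control libraries, against 38.1, 38.0 and 34.1 CPM in the WT control libraries. Its log2 was -0.15 ± 0.11 in control cells and -0.44 ± 0.10 with Dex, where it was called with an edgeR adjusted p of 0.0421.

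Fkbp5, the co-chaperone gene that dampens receptor activity, had a log2 of -0.05 ± 0.10 in control cells. Per1, a clock gene, had -0.17 ± 0.09, and Klf9, a transcription factor gene, had -0.16 ± 0.10. Cxcr4, a chemokine receptor gene, had -0.13 ± 0.10, and Il7r, the IL-7 receptor gene, had -0.06 ± 0.10. The lowest value of the list was at Txnip, a gene induced by glucose and glucocorticoids, with 52.6, 55.3 and 54.6 CPM in cKO control and 59.8, 105 and 61.5 CPM in WT control. WT replicate 2 stood far above the other libraries there. The highest value was at Il1r2, a decoy receptor gene, with 0.02 ± 0.10. None of these was called in control cells.

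Genes of steroid synthesis showed no called peak among 181, with 5 higher and 10 lower at an unadjusted p under 0.05 (2.76% and 5.52%, against 3.44% and 4.25% of all tested peaks). The strongest peak near Cyp11a1, the gene of the enzyme that starts steroid synthesis from cholesterol, had 51.4, 57.5 and 49.2 CPM in the cKO control libraries, against 55.1, 52.8 and 50.2 CPM in the WT control libraries. The groups overlapped fully, at a log2 of 0.00 ± 0.10. Hsd11b1, which encodes the enzyme that reactivates inert glucocorticoids, had 15.8, 13.6 and 13.3 CPM in cKO control and 11.8, 15.1 and 16.1 CPM in WT control, a log2 of -0.03 ± 0.14. The lowest and highest values were at weak peaks of Nr5a2, a nuclear receptor gene (-0.63 ± 0.29), and Cyp11b1, which makes corticosterone (0.45 ± 0.31).

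**Figure D4:**
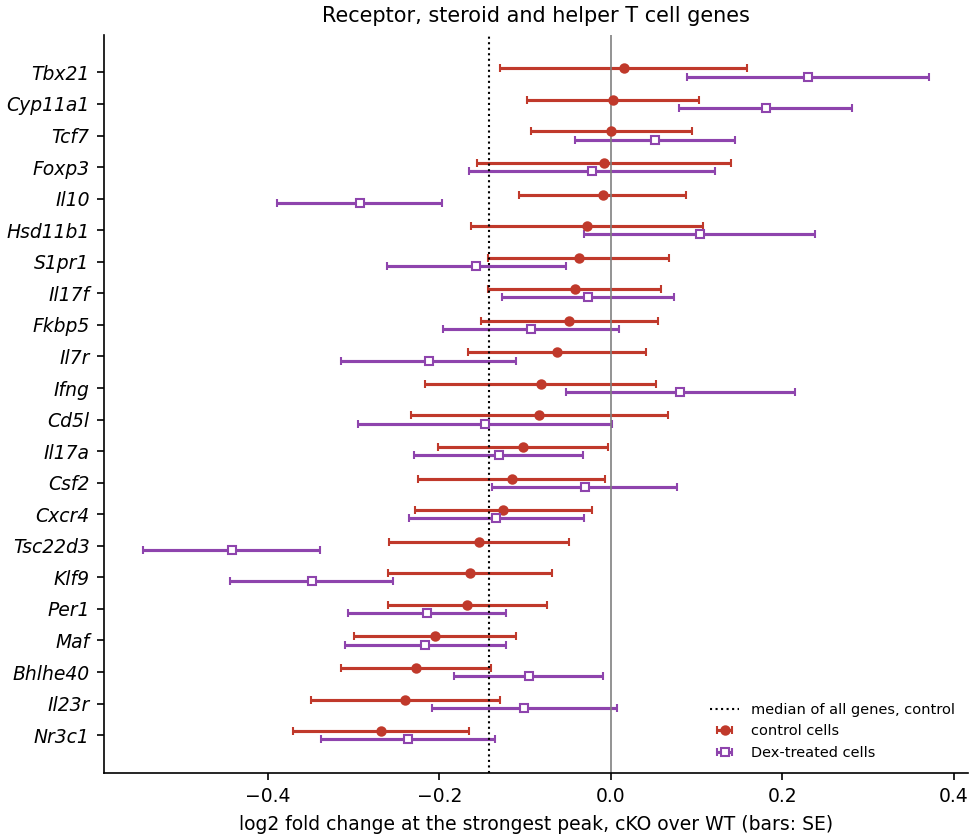
Log2 fold change (cKO over WT) with its SE at the strongest peak of 22 genes, in control cells (red circles) and Dex-treated cells (open purple squares), with the dotted line at the median of all genes in control cells (-0.14). Values in control cells run between -0.27 at Nr3c1 and 0.01 at Tbx21, and none was called.

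Th17 genes also stayed below the threshold. The strongest peak near Il17a, the signature cytokine gene, had 60.9, 75.4 and 62.3 CPM in the cKO control libraries, against 74.0, 71.2 and 68.4 CPM in the WT control libraries. The groups overlapped. Il17f, its neighbour, had a log2 of -0.04 ± 0.10, and Il10, an anti-inflammatory cytokine gene, had -0.01 ± 0.10.

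Among regulators, the strongest peak near Maf, which promotes IL-10, had 66.8, 66.0 and 61.0 CPM in the cKO control libraries, against 70.7, 78.2 and 74.5 CPM in the WT control libraries. The groups did not overlap, at a log2 of -0.21 ± 0.09 with an edgeR adjusted p of 0.618. Bhlhe40, a factor needed for inflammatory cytokine output, had 165, 176 and 161 CPM in cKO control and 185, 207 and 195 CPM in WT control, a log2 of -0.23 ± 0.09 with an adjusted p of 0.535. Il23r, the IL-23 receptor gene, had 25.2, 30.2 and 28.1 CPM in cKO control and 32.3, 34.2 and 32.2 CPM in WT control, with an adjusted p of 0.616. Cd5l, linked to the non-pathogenic state, had -0.08 ± 0.15 on the log2 scale, and Csf2, the GM-CSF gene, had -0.12 ± 0.11.

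None of the 776 peaks of the Th17 core list, the 219 of the non-pathogenic list or the 396 of the pathogenic list was called. At an unadjusted p under 0.05 the core list had 31 higher and 24 lower peaks (3.99% and 3.09%), the non-pathogenic list 11 and 10 (5.02% and 4.57%), and the pathogenic list 7 and 7 (1.77% each). Over all tested peaks these shares were 3.44% and 4.25%. At strongest peaks the lowest value of the core list was -0.25 at Ahr, the aryl hydrocarbon receptor gene. The non-pathogenic list ran between -0.26 at Il9, a cytokine gene, and 0.04 at Ccr6, a chemokine receptor gene. The pathogenic list ran between -0.24 at Il22 and 0.16 at Cxcl3.

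Lists of other helper states gave no call either, and their counts are read against 3.44% higher and 4.25% lower among all tested peaks. Treg genes had 19 higher and 4 lower peaks of 280 at an unadjusted p under 0.05 (6.79% and 1.43%), with log2 values at strongest peaks between -0.20 at Capg, an actin-binding protein gene, and 0.08 at Il2ra, the high-affinity IL-2 receptor gene. Foxp3, the Treg lineage factor, had -0.01 ± 0.15. Th1 genes had 12 higher and 7 lower of 295 (4.07% and 2.37%), between the homeobox gene Hlx (-0.28) and the chemokine receptor gene Cxcr3 (0.11), and the Th1 factor Tbx21 and its cytokine Ifng had 0.01 ± 0.14 and -0.08 ± 0.13. Th2 genes had 4 higher and 3 lower of 141 (2.84% and 2.13%), between the lineage factor gene Gata3 (-0.20) and the DNA repair gene Rad50 (0.03), and Tfh genes 7 higher and 9 lower of 290 (2.41% and 3.10%), between the factor genes Tox2 (-0.22) and Ascl2 (0.52).

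Naive and memory genes had 26 higher and 20 lower of 815 (3.19% and 2.45%, against 3.44% and 4.25% of all tested peaks), with strongest peaks between -0.26 at Id3, an inhibitor of E proteins, and 0.00 at Tcf7, the gene of TCF1. S1pr1, whose product directs T cells out of lymph nodes, had -0.04 ± 0.11. Co-inhibitory receptor genes had 13 higher and 5 lower of 261 (4.98% and 1.92%), between Entpd1 (-0.18) and Nt5e (0.14), which encode ectonucleotidases. Apoptosis genes had 5 higher and 14 lower of 339 (1.47% and 4.13%), between Bad (-0.36) and the strongest peak of Pmaip1 (0.16), a different peak from the weaker one described above.

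In the T cell receptor signalling list, all 10 calls among 771 peaks were at Rhoh. At an unadjusted p under 0.05, 20 peaks were higher and 55 lower (2.59% and 7.13%), and 21 of the 55 were peaks of Rhoh. Of the other 742 peaks, 20 were higher and 34 lower (2.70% and 4.58%), against 3.44% and 4.25% of all tested peaks. Of the strongest peaks 5 of 24 (20.8%) were lower, against 19.5% of all genes. After Rhoh the lowest value was at Cblb, picked out after its value was seen, a ubiquitin ligase gene that restrains activation, with -0.25 ± 0.10. Lck, the kinase gene, had the highest value, with 38.6, 38.6 and 38.7 CPM in the cKO control libraries, against 37.4, 34.3 and 37.8 CPM in the WT control libraries.

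At an unadjusted p under 0.05, activation and AP-1 genes had 8 of 21 strongest peaks lower (38.1%). NF-kB and inflammatory genes had 7 of 18 (38.9%), against 19.5% of all genes, with no call among 490 and 292 peaks. Of the 490 activation peaks 24 were higher and 23 lower (4.90% and 4.69%), and of the 292 NF-kB peaks 9 and 18 (3.08% and 6.16%). All tested peaks had 3.44% higher and 4.25% lower. In the strongest class of mean level outside the interval, 34.4% of promoter peaks and 12.1% of others were lower. Whether these lists differ from peaks of like level was not tested. The strongest peak near Fos, an AP-1 subunit gene, had 40.5, 41.2 and 37.6 CPM in the cKO control libraries, against 46.4, 56.0 and 49.6 CPM in the WT control libraries, at a log2 of -0.35 ± 0.11 and an edgeR adjusted p of 0.404. Rela, the gene of the NF-kB subunit p65, had 29.8, 31.6 and 25.8 CPM in cKO control and 41.4, 36.3 and 36.0 CPM in WT control, at -0.38 ± 0.11 and an adjusted p of 0.376. At both, every cKO library was below every WT library. The same held at 28.8% of peaks in the strongest class and at 46.1% of its promoter peaks. The opposite order held at 1.05% and 0.251%. The Rela peak lay on a promoter. The highest values of these lists were 0.08 at Il2ra and 0.14 at Il1b.

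**Figure D5:**
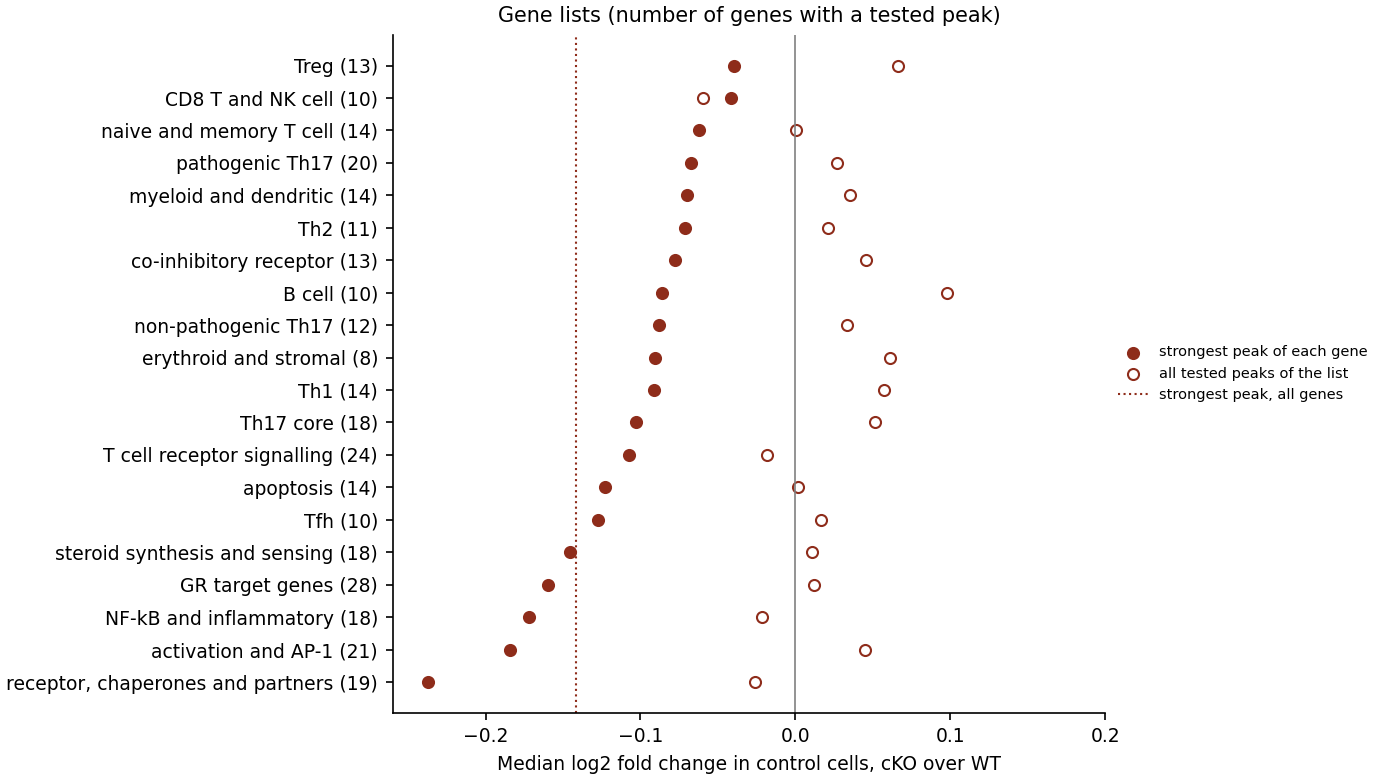
Median log2 fold change in control cells (cKO over WT) of 20 gene lists at the strongest peak of each gene (filled) and over all tested peaks (open), with the dotted line at the strongest-peak median of all genes (-0.14). The receptor, chaperone and partner list has the lowest strongest-peak median, -0.24, and all open points lie between -0.06 and 0.10.

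Summed levels of the markers of other cell types overlapped between genotypes. Summed over strongest peaks, B cell markers held 71.9 to 86.5 CPM in the cKO control libraries, against 75.6 to 84.5 CPM in the WT control libraries. CD8 and NK cell markers held 114.5 to 131.7 CPM in cKO control and 124.7 to 134.0 CPM in WT control. Myeloid and dendritic markers held 161.8 to 182.3 CPM in cKO control and 176.0 to 183.3 CPM in WT control. Erythroid and stromal markers, of which 8 of 10 had a tested peak, held 100.1 to 113.8 CPM in cKO control and 107.5 to 117.5 CPM in WT control. The T cell and Th17 markers summed to 428 to 492 CPM in cKO control and 464 to 488 CPM in WT control. Single values in these lists ran between Blk (-0.48) and Ms4a1 (0.39) for B cells, Cd8a (-0.57) and Gzma (0.39) for CD8 and NK cells, and S100a8 (-0.36) and Mpo (0.72) for myeloid cells. The highest of the erythroid and stromal list was Hba-a1 (0.57).

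The genome was also described in stretches of 20 neighbouring tested peaks. Among 10119 such stretches, 3 of the 4 that touch the interval had the lowest medians, at -0.998, -0.898 and -0.893. The remaining stretch that touches it had 0.18. The interval had been singled out on these libraries, so this rank is a description. The lowest median outside was -0.42 on chromosome 15 around Cdh10 and Cdh12, which encode cadherins. The highest was 0.91 on chromosome 4, over a run of zinc finger genes that includes Zfp978 and Zfp984 and can share reads. That stretch summed to 26.8, 21.7 and 27.6 CPM in the cKO control libraries, against 19.4, 18.4 and 17.1 CPM in the WT control libraries, with no called peak. A stretch on chromosome 1 at Hjurp and Trpm8 had a median of 0.88, but its sums overlapped, at 99.8, 87.4 and 101.6 CPM in cKO control and 96.3, 76.1 and 67.8 CPM in WT control.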

How the data were processed

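The authors deposited 1 table of read counts per peak over all 12 libraries, in build mm10. The counts are whole numbers with no normalisation. Per the submitters' processing notes, which give no roles or order, processing involved Genrich 0.6.1, featureCounts 2.1.1, Subread, Bowtie2 2.3.5, Trimmomatic 0.39, SAMtools 1.3, Picard 2.18.27 and deepTools 3.5.6. The sources used here do not give whether libraries were pooled to call peaks, or how duplicates were treated.

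Counts were fitted with edgeR 4.0.16 in R 4.3.3 (robust quasi-likelihood, TMM scaling, 1 coefficient for each of 4 groups, 8 residual degrees of freedom). Peaks were kept by filterByExpr (minimum count 10, minimum total 15), and p-values were adjusted by Benjamini-Hochberg over all tested peaks. SEs were computed as the size of the log2 fold change over the square root of F, and the prior count was 2. Alternatives used limma 3.58.1 and DESeq2 1.42.0. Tables were made with Python 3.11.15, pandas 2.3.3 and SciPy 1.17.1. The files held all 12 libraries under their labelled names.

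A peak was given to the RefSeq protein-coding gene whose span (GRCm38.p6) holds its centre, otherwise to the nearest within 50 kb, which gave 198839 peaks a gene. Promoter peaks overlap a 300-base RefSeq window by at least 1 base. Named peaks were the calls, up to 6 by smallest p in the interval, the 10 with the smallest p in each direction outside it with a group mean of at least 2 CPM, the strongest peak of 24 key genes, and the lowest and highest gene of each of 20 lists. Some genes that this rule names are not reported here. The strongest peak of a gene has the highest mean CPM over all libraries. The members and lists were chosen with earlier results of these data known.

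Replicates are not stated to be different animals or cultures. The p-values thus reflect the spread among these libraries alone, which may be technical. The median biological coefficient of variation was 24.8%. PCR copies are not independent molecules. Simulated data for this comparison had 200 of 202587 peaks changed in each of 3 simulations, all of them peaks of at least 2 CPM. Among these, the fit found 25.3% of peaks altered 1.5-fold, 70.0% of those altered 2-fold, 94.7% for 3-fold changes and 98.0% for 4-fold changes. Of 459 calls in the simulations, 27 (5.88%) were false. All groups had the same mean at unchanged peaks, so the simulations lacked the lower share of counts in strong peaks seen in cKO. The rates under such a shift were not tested. Recovery at weaker peaks was not tested, and the median level of all tested peaks was 1.25 CPM.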

Additional observations from a re-analysis of the deposited data

Results flagged for a closer look

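The Sgk1 peak on chromosome 10 from 21998412 to 21999305 had genotype differences of opposite sign in the 2 treatments. It was chosen by its small p in control cells and reached the minimum of 2 CPM in cKO but not WT control cells, and the difference contains those control libraries. In control cells cKO over WT gave a log2 of 1.42 ± 0.33 and with Dex -0.73 ± 0.30, a difference of 2.15 ± 0.44 with an edgeR interaction p of 0.0386 adjusted over all tested peaks (SE, n = 3 per group). All 3 cKO control libraries lay above all 3 WT control libraries, and all 3 cKO Dex libraries lay below all 3 WT Dex libraries.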

How the results depend on the processing

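With all peaks, 21 were called, and with the interval removed, 0. DESeq2 called 371 and 491, loess offsets 48 and 23, quantile normalisation 73 and 35, sample quality weights 214 and 171, the stricter filter 150 and 114, and only the control libraries 96 and 30, in each case with all peaks and then without the interval. Total counts gave 38 with all peaks, and the share covariate gave 2 without the interval. Leaving out 1 control library gave 13 to 23 calls with all peaks and 0 to 2 without the interval. Calls in the interval numbered 13 to 18 in every setting but DESeq2, which called 2 there and gave an adjusted p to 14057 peaks. Of the 17 interval calls, 12 stayed past the threshold in every setting that gave them an adjusted p. The cKO over WT ratio of the summed interval was 0.489 to 0.511 when 1 control library was left out, 0.495 with RLE scaling and 0.524 with total counts. The difference in the share of counts held by the strongest peaks ranged between -3.02 and -1.76 percentage points over those libraries. No direction of a named call reversed. The causes were not tested.

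With the replicate number as a block, 173 peaks were called with all peaks and 128 without the interval. Correlations of the deviations of same-numbered control libraries from their group means were small, at 0.0905, 0.0656 and -0.00495 for numbers 1, 2 and 3. Those of differently numbered libraries ran between -0.105 and 0.0596. The share of counts in the strongest 10% of peaks was lowest in number 1 and highest in number 2 in both genotypes. Whether the numbers pair the samples cannot be told from these values. At this depth and replicate number, a 1.5-fold change was found in 25.3% of simulated cases, all at peaks of at least 2 CPM.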
